A study of Homo sapiens with 6 samples.

Results

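The proteasome is the protease that degrades most ubiquitin-tagged proteins in the cytosol and nucleus, and its genes were followed here in SaOS-2 osteosarcoma cells after induction of the CDK inhibitor p21. The genes were chosen by name, as every row of the table whose symbol starts with PSMA, PSMB, PSMC, PSMD, PSME, PSMF or PSMG followed by a number, which gave 48 of the 23228 rows. RNA was sequenced from 6 libraries of SaOS-2 cells carrying a doxycycline-inducible p21 vector. The 3 p21 OFF libraries came from untreated cells and the 3 p21 ON libraries from cells given 1 μg/ml doxycycline for 24 h. All libraries are of the same engineered line, which lacks functional RB and p53, and no cells given doxycycline without the vector were analysed here, so p21 and the drug cannot be told apart. Values are normalized counts, that is reads per gene divided by a size factor for each library.

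The 20S core of the proteasome is a barrel of outer rings built from PSMA subunits and inner rings built from PSMB subunits, and 3 of the PSMB subunits, PSMB5, PSMB6 and PSMB7, cut proteins. The 19S regulatory particle caps the barrel: its base holds the PSMC ATPases, which unfold substrates, and its lid holds PSMD subunits, among them PSMD14, which removes ubiquitin. PSMB8, PSMB9 and PSMB10 replace the standard cutting subunits in the immunoproteasome, which is induced by interferon and best known from immune cells, and PSME genes encode other caps. PSMG genes and PSMD5, PSMD9 and PSMD10 encode chaperones that assemble the core and the base. When proteasomes are inhibited, the transcription factor NFE2L1 raises the subunit genes together.

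The labels were checked on CDKN1A, the gene of p21, which had 1257, 1187 and 1355 normalized counts in p21 OFF and 40470, 43863 and 46739 in p21 ON libraries. The libraries held 12795490 to 21975045 reads on genes, and the smallest was p21 OFF replicate 1. That library also stood apart from its own group: its chi-square per gene against the other p21 OFF libraries was 8.50 and 9.26, where the other replicate pairs gave 2.71 to 3.98. Of 8 osteoblast markers, 6 had a mean of at least 10 normalized counts, led by ALPL and SPARC, while COL1A2 stayed under 5 in every library and BGLAP was at 0, and the list summed to 71373 to 74081 normalized counts in p21 OFF and 72417 to 75639 in p21 ON libraries. Most of that sum was ALPL and SPARC, and the single markers differed: IBSP was lower by 23.3% (limma adjusted p = 0.0264), and COL1A1 was higher in every p21 ON than in every p21 OFF library without passing the test (log2 fold change 0.14, limma adjusted p = 0.103). Of the leukocyte markers PTPRC, CD3E, CD14, ITGAM and CD68 only CD68 reached a mean of 10, and together they summed to 801 to 876 normalized counts in p21 OFF and 823 to 939 in p21 ON libraries. Of 4 epithelial markers, 3 reached it, and that list summed to 2237 to 2753 normalized counts in p21 OFF and 2567 to 2902 in p21 ON libraries. Most of this sum was KRT18, with a mean of 2163 over all libraries, and CDH1 stayed under 4 in every library.

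Induction of p21 was followed by a small fall across most proteasome genes. Of the 48 genes, 45 had a mean of at least 10 normalized counts and were tested, and 29 of these were lower in p21 ON cells and 0 were higher by limma with Benjamini-Hochberg adjustment over all genes and an adjusted p-value under 0.05. Over all 13255 genes tested, 12.7% were called lower and 10.5% higher. In bulk RNA, fewer transcripts per cell and fewer cells with the transcript cannot be told apart. At an unadjusted p-value under 0.05, 38 proteasome genes passed, all of them lower, where 36.8% of all genes passed in either direction and 19.1% passed as lower. The median log2 fold change of the 45 genes was -0.23, a level 14.6% lower, with an interquartile range from -0.30 to -0.16, against a median of 0.0056 over all genes tested. The range was narrow, from -0.42 to 0.07, and 42 of the 45 values were below 0, against 48.9% of all genes. The p21 ON libraries lay wholly below the p21 OFF libraries for 37 of the 45 genes and wholly above for 0, where the shares over all genes were 21.3% and 19.1%. DESeq2 and edgeR on the recovered reads called 26 and 28 of the genes lower, against 10.6% and 12.4% of all genes, and 0 higher, against 8.39% and 10.6%.

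**Figure D1:**
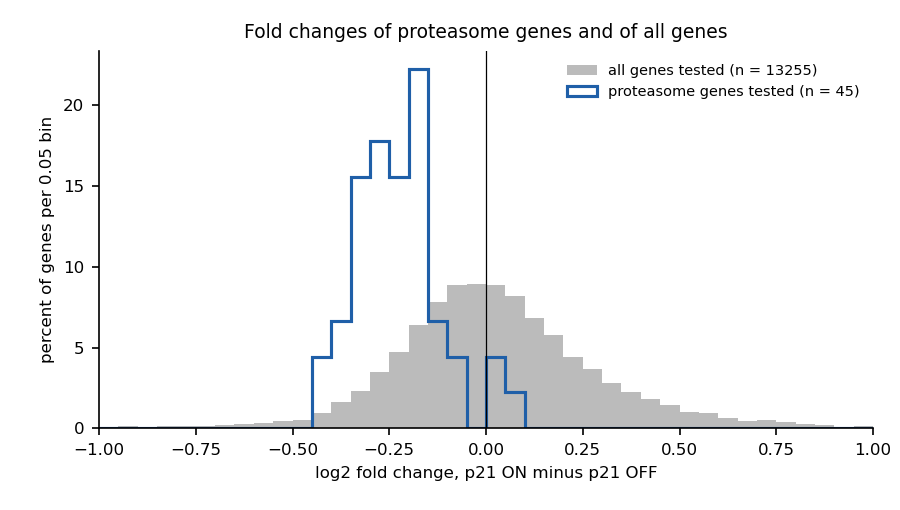
Distribution of log2 fold changes (p21 ON minus p21 OFF) of the 45 proteasome genes tested (blue line) and of all 13255 genes tested (grey), each as the percent of its genes per bin of 0.05; 207 genes lie beyond the axis. The proteasome genes form a narrow peak left of 0, with a median of -0.23 and 3 genes above 0.

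The fall was seen in the libraries as a shift of nearly the whole group, but not to the same depth in each. After each gene was centred on its own mean, the median of the 45 genes on the log2 scale was 0.219, 0.086 and 0.0555 in p21 OFF replicates 1 to 3 and -0.172, -0.0491 and -0.136 in p21 ON replicates 1 to 3. The groups did not overlap, and p21 OFF replicate 1 was the highest and p21 ON replicate 1 the lowest. Library p21 OFF replicate 1 had the highest value of all 6 for 34 of the 45 genes, or 75.6%, and for 27.6% of all genes tested. Without it 29 proteasome genes were lower (12.2% of all genes), of which 25 were the same, and the median was -0.20. PSMB8, PSMD7, PSMD13 and PSME1 lost their calls in that fit, and PSMB7, PSMD1, PSMD2 and PSMD11 gained one.

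The number of calls was lowest without p21 ON replicate 1 or 3. Without p21 ON replicate 1 the lower genes numbered 15, against 6.69% of all genes, and PSMA6, PSMB5, PSMB8, PSMC2, PSMC3, PSMC5, PSMD4, PSMD7, PSMD8, PSMD9, PSMD12, PSMD13, PSME1 and PSME3 lost their calls. Without p21 ON replicate 3 they numbered 18, against 8.13%, and PSMA2, PSMA3, PSMA6, PSMB8, PSMC2, PSMC5, PSMD7, PSMD12, PSMD13, PSME1 and PSME3 lost theirs. Leaving out p21 ON replicate 2, p21 OFF replicate 2 or p21 OFF replicate 3 gave 29, 24 and 29 lower genes, against 11.0%, 10.4% and 12.5% of all genes. PSMC5, PSMD8 and PSME1 lost their calls in the first of these fits, PSMB8, PSMC5, PSMD8, PSMD13 and PSME3 in the second and PSMD13 in the last. PSMA1, PSMD1 and PSMG1 gained a call without p21 ON replicate 2, and PSMA1 gained one without p21 OFF replicate 3. The 13 genes that were lower with each library left out in turn were PSMA4, PSMA5, PSMA7, PSMB1, PSMB2, PSMB3, PSMB4, PSMB6, PSMC6, PSMD3, PSMD6, PSMD10 and PSMD14. In all these fits 42 to 44 of the 45 values were below 0.

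**Figure D2:**
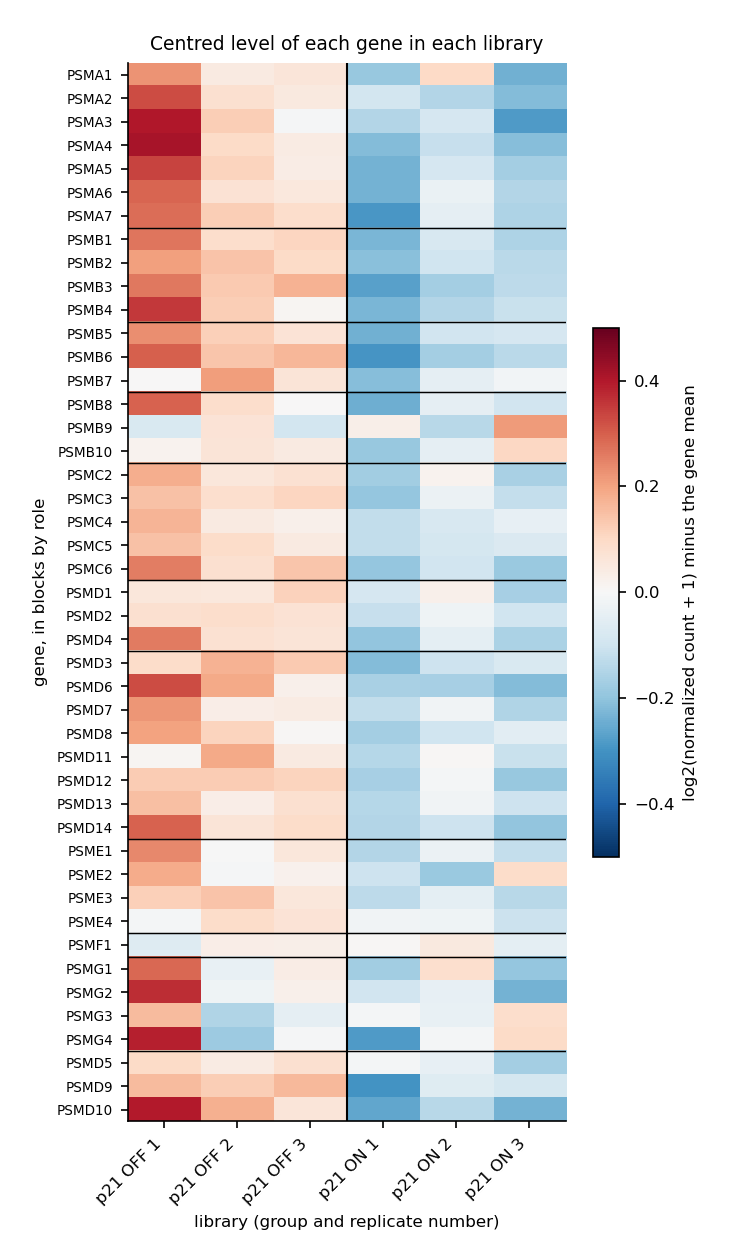
Level of each tested proteasome gene (rows, in blocks by role) in each library (columns), as log2(normalized count + 1) minus the mean of the gene over the 6 libraries. Red in the p21 OFF columns and blue in the p21 ON columns runs through nearly all blocks, the deepest red is in p21 OFF replicate 1, and PSMB9, PSMF1 and PSMG3 do not follow.

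Promoter sequences were looked at because these genes moved together. RefSeq windows of 300 bases (GRCh38.p14, from 250 bases before a start to 50 after it) were found for 42 of the 48 genes, in 51 windows, since some genes have several listed starts and windows of PSMA4, of PSMA6 and of PSMC5 overlap each other. The motifs below were searched on both strands, and none of them is contained in another, although sites may overlap in a window. The CCAAT box, bound by NF-Y, was spelled CCAAT and was in 20 member windows, or 39.2%, in 34.6% of all 35097 windows of that length, and in 34.6% of the 19502 windows of genes in the expression table. The core of the antioxidant response element, bound by NFE2L1 and NFE2L2, was spelled TGACNNNGC and was in 15 windows, or 29.4%, against 13.3% of all windows and 13.8% of those of genes in the table. An ETS site, spelled CCGGAAGT, was in 10 windows, or 19.6%, against 4.14% and 5.29%. The CHR, the element of G2/M genes, was spelled TTTGAA or TTCGAA and was in 7 windows, or 13.7%, against 16.4% and 13.7%. An E2F site, spelled TTTCCCGC or TTTGGCGC or TTTCGCGC or TTTGCCGC, was in 4 windows, or 7.84%, against 3.32% and 4.04%. The core of the interferon-stimulated response element, spelled GAAANNGAA, was in 8 windows, or 15.7%, against 8.11% and 7.02%.

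Of the 19 tested genes with a CCAAT box in a window, 17 were lower, and of the 20 tested genes with a window and no box, 8 were lower. With the antioxidant core the counts were 7 of 15 and without it 18 of 24. For the CHR they were 4 of 5 with it and 21 of 34 without, and for the E2F site 2 of 4 and 23 of 35. The interferon-stimulated core gave 5 of 8 and 20 of 31, and the ETS site 6 of 8 and 19 of 31. Among all genes tested 12.7% were lower, and the shares of all genes with and without each motif were not computed. These counts describe letters in a window and were not tested. The motif to show, the CCAAT box, was not fixed in advance. Its share of member windows, 39.2% against 34.6% of all windows, was nearer its background than those of the antioxidant core and the ETS site. The windows below belong to the 4 lower genes with the lowest adjusted p-values among those with a CCAAT box, and to PSMF1. PSMF1 had the fold change nearest 0 and has no box. Capitals mark CCAAT on either strand and no other motif. Left unmarked are antioxidant cores from -104 in PSMB3 and -126 in PSMA4, an E2F site in PSMB3 and an ETS site from -6 in PSMF1. Positions are counted from the start of transcription, where the first transcribed base is 1 and there is no 0.
PSMB3, plus strand, chr17:38752491-38752790, boxes from -55 and -13: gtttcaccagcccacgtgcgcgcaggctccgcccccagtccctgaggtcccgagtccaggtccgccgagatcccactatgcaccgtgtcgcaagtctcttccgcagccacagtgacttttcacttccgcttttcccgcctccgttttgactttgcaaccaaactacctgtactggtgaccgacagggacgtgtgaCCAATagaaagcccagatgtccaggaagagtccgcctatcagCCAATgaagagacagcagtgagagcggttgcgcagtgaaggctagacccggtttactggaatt
PSMB2, minus strand, chr1:35641477-35641776, box from -2, across the start: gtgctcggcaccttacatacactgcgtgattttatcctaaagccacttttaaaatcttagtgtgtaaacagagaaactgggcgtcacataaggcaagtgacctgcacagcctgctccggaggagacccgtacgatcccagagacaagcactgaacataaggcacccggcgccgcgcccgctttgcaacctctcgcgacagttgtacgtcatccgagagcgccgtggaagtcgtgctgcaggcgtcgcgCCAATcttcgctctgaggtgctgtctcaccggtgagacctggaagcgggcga
PSMD10, minus strand, chrX:108091493-108091792, box from -76: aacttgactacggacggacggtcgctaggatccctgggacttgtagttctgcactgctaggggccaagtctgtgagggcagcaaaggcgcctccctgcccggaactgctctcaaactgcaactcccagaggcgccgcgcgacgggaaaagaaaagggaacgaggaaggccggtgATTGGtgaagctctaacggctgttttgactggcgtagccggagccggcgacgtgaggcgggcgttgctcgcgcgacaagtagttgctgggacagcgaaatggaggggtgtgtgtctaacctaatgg
PSMA4, plus strand, chr15:78540536-78540835, the last of 3 listed starts, box from -199: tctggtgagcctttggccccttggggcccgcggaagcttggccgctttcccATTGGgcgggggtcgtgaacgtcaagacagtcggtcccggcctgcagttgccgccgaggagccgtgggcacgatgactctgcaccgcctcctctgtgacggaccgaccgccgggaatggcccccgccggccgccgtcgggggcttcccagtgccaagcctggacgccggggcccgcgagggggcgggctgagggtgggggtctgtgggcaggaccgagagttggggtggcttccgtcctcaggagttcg
PSMF1, plus strand, chr20:1118352-1118651, the second of 2 listed starts, no box: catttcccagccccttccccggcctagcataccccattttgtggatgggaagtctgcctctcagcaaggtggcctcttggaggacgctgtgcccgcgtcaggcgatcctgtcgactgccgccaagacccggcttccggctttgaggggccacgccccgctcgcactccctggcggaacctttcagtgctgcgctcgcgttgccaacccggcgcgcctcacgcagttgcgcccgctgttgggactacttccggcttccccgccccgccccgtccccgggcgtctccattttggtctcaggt

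In the 20S core, 14 of 15 genes were tested and 12 were lower, beside 12.7% of all genes tested. The median log2 fold change of the 14 core genes was -0.32. The outer rings are built from PSMA1 to PSMA7, which also hold the gate through which proteins enter. Of these 7 genes 6 were lower, by 17.5% for PSMA6 to 22.3% for PSMA4, with 18.9%, 21.2% and 20.1% for PSMA2, PSMA3 and PSMA5. PSMA4, on chromosome 15 of GRCh37 from 78832747 to 78844759, had 4072, 3274 and 3146 normalized counts in p21 OFF and 2632, 2828 and 2639 in p21 ON libraries. Its groups did not overlap, and the gap to the lowest p21 OFF library was smaller than the gap between p21 OFF replicate 1 and the others. The log2 fold change was -0.36 (SE 0.08, limma adjusted p = 0.00346). PSMA7 (chromosome 20, 60711789 to 60718496) had 3596, 3228 and 3151 normalized counts in p21 OFF and 2418, 2876 and 2659 in p21 ON libraries. Again every p21 ON library was below every p21 OFF library, with a log2 fold change of -0.33 (SE 0.07, limma adjusted p = 0.00324). PSMA1 was the exception in this ring, since p21 ON replicate 2, at 2291, lay above p21 OFF replicates 2 and 3, at 2205 and 2228. Its log2 fold change of -0.22 did not pass (limma adjusted p = 0.0561). PSMA8, the alpha subunit known from testis, had 1 read in 1 library and 0 in the other 5.

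In the inner rings all 4 structural genes, PSMB1 to PSMB4, were lower, beside 12.7% of all genes tested. PSMB3 (chromosome 17, 36908994 to 36920478) had 1644, 1498 and 1543 normalized counts in p21 OFF and 1134, 1216 and 1249 in p21 ON libraries. These groups were far apart against their spread, with 1562 ± 74.6 and 1200 ± 59.1 normalized counts (SD, n = 3 each). The log2 fold change was -0.38 (SE 0.07, limma adjusted p = 0.000476). PSMB2 (chromosome 1, 36065142 to 36107127) had 7489, 7172 and 6938 normalized counts in p21 OFF and 5609, 6050 and 5905 in p21 ON libraries, a log2 fold change of -0.30 (limma adjusted p = 0.00154). PSMB1 (chromosome 6, 170844208 to 170862395) had 3432, 3024 and 3066 normalized counts in p21 OFF and 2431, 2694 and 2558 in p21 ON libraries, a log2 fold change of -0.31 (limma adjusted p = 0.00276). For both, the highest p21 ON library stayed below the lowest p21 OFF library. PSMB4 was lower by 20.1% (limma adjusted p = 0.00492).

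Of the cutting subunits, PSMB6, which cleaves after acidic residues, had the lowest adjusted p-value of the whole group. On chromosome 17 from 4699439 to 4701797, it had 2150, 1926 and 1963 normalized counts in p21 OFF and 1426, 1554 and 1593 in p21 ON libraries. The groups were separated by more than the range of either, and the log2 fold change was -0.40 (SE 0.07, limma adjusted p = 0.000329). PSMB5, the chymotrypsin-like subunit that bortezomib blocks, had 3307, 3056 and 2945 normalized counts in p21 OFF and 2378, 2631 and 2651 in p21 ON libraries. It was lower by 17.7% (log2 fold change -0.28, SE 0.06, limma adjusted p = 0.00506). PSMB7, the trypsin-like subunit, had 1645, 1898 and 1716 normalized counts in p21 OFF and 1416, 1594 and 1627 in p21 ON libraries. Its groups did not overlap, but p21 OFF replicate 1 nearly met p21 ON replicate 3, and the log2 fold change of -0.18 did not pass (limma adjusted p = 0.0734).

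**Figure D3:**
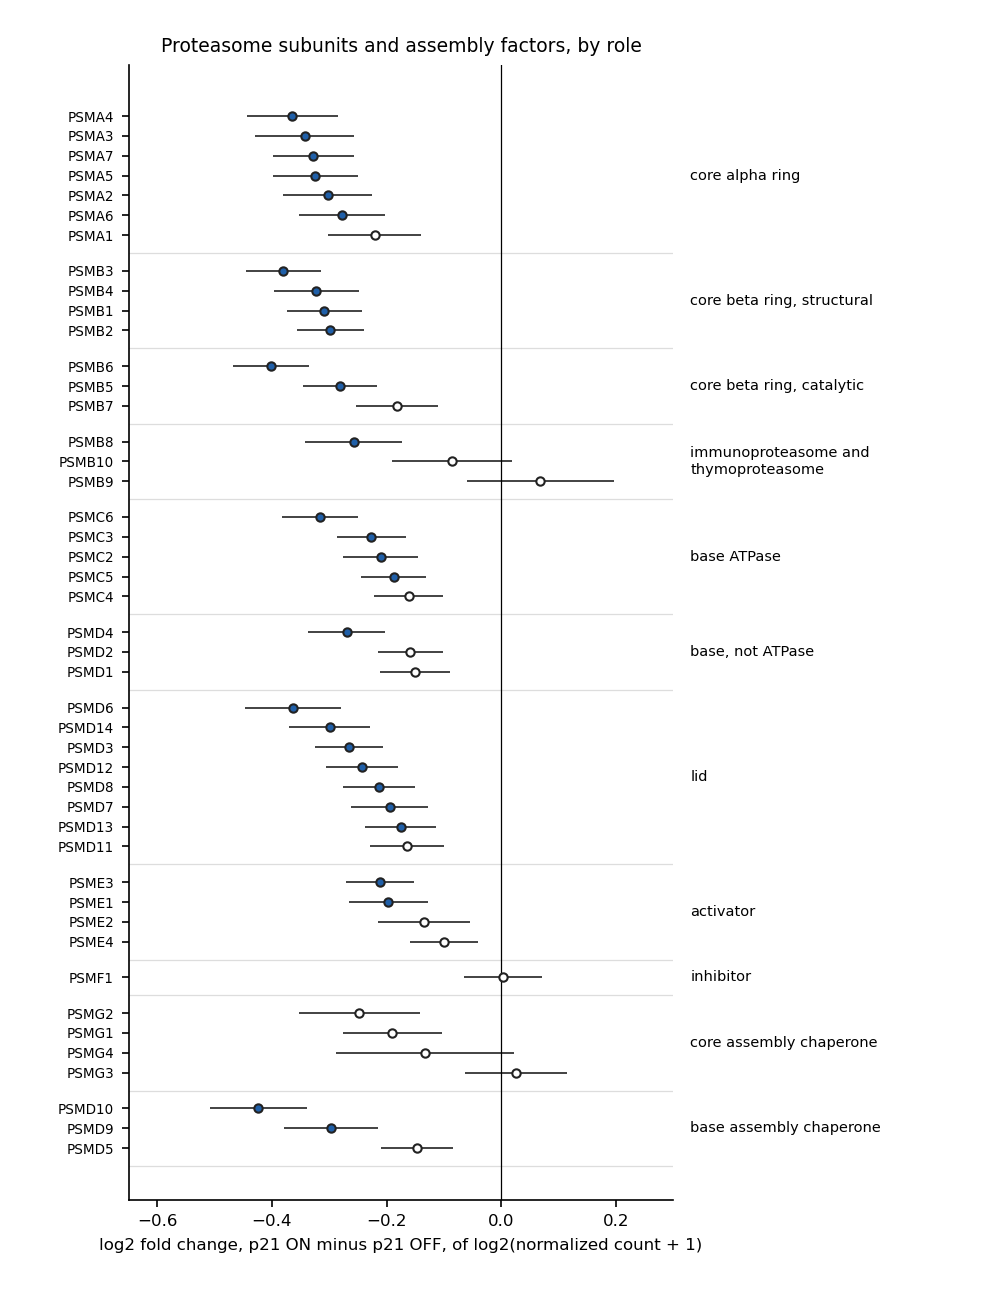
Log2 fold change (p21 ON minus p21 OFF, of log2(normalized count + 1)) of each tested proteasome gene, in blocks by role; bars are standard errors from limma and filled points have an adjusted p-value under 0.05. All 14 core and all 16 regulatory particle genes tested lie below 0, from -0.40 to -0.15, while the inhibitor PSMF1 and PSMG3 lie at 0.0028 and 0.03.

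The immunoproteasome genes were present at lower levels than the standard genes they replace. Of the 3 tested, 1 was lower in p21 ON cells, beside 12.7% of all genes tested. Per kilobase of transcript, PSMB8 had 626 normalized counts in p21 OFF cells against 2972 for PSMB5, PSMB9 had 103 against 2443 for PSMB6, and PSMB10 had 195 against 1782 for PSMB7. PSMB8 (chromosome 6, 32808494 to 32812456) had 787, 682 and 643 normalized counts in p21 OFF and 541, 621 and 601 in p21 ON libraries. It was lower, with a log2 fold change of -0.26 (SE 0.08, limma adjusted p = 0.0348), and the call was lost with DESeq2. PSMB9, the neighbour of PSMB8 (chromosome 6, 32811913 to 32827628), had 102, 112 and 101 normalized counts in p21 OFF and 109, 97.5 and 124 in p21 ON libraries. Its groups overlapped, and the log2 fold change was 0.07 (SE 0.13, limma adjusted p = 0.735). PSMB10 (chromosome 16, 67968409 to 67970767) had 187, 193 and 191 normalized counts in p21 OFF and 162, 179 and 199 in p21 ON libraries, so that the p21 ON libraries spanned the p21 OFF ones. Its log2 fold change was -0.09 (SE 0.10, limma adjusted p = 0.585). PSMB11, the subunit of thymic epithelium, had 1 read in 1 library and 0 in the other 5.

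Because each immunoproteasome subunit takes the place of a standard one, the log2 ratio of each pair was compared between conditions in 3 tests. The ratio of PSMB9 to PSMB6 was -4.39, -4.08 and -4.27 in p21 OFF and -3.69, -3.98 and -3.67 in p21 ON libraries. Every p21 ON library was above every p21 OFF library, and the means were 0.47 apart (two-sided exact permutation, p = 0.1, which is the lowest value possible with 3 libraries against 3, and 0.3 after Benjamini-Hochberg adjustment over the 3 pairs). Most of this difference lay in the fall of PSMB6, with a log2 fold change of -0.40, while PSMB9 had 0.07 with overlapping groups. The ratio of PSMB10 to PSMB7 differed by 0.10 (exact permutation test, p = 0.2, 0.3 adjusted) and that of PSMB8 to PSMB5 by 0.02 (exact permutation test, p = 0.6, 0.6 adjusted), and both pairs had overlapping groups. Among genes of antigen presentation, TAP2 and B2M, named after their values were seen, were lower, with log2 fold changes of -0.24 and -0.24 (limma adjusted p = 0.0152 and 0.0301), while IRF1, an interferon-induced activator of PSMB9, had a value of 0.18 (limma adjusted p = 0.11).

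**Figure D4:**
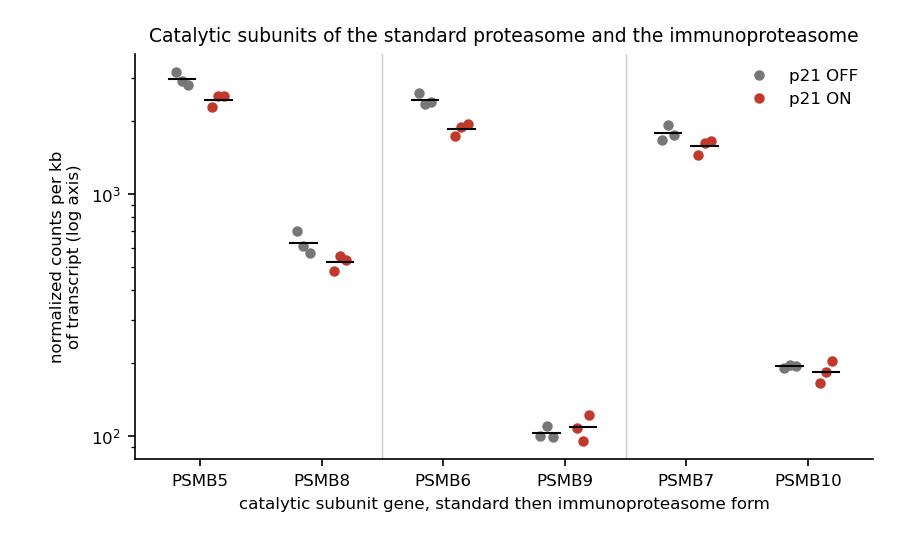
Normalized counts per kilobase of transcript (log axis) of the cutting subunits, with the standard gene and its immunoproteasome counterpart side by side; points are libraries, 3 per condition, and lines are means. PSMB5, PSMB6 and PSMB7 are lower in p21 ON libraries without overlap, while the PSMB9 and PSMB10 points of the conditions overlap.

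In the 19S regulatory particle, 16 of 17 genes were tested and 12 were lower, beside 12.7% of all genes tested. The p21 ON libraries lay below the p21 OFF libraries for all 16, beside 21.3% of all genes tested. The median log2 fold change of the 16 genes was -0.21, against -0.32 in the core. After centring, the mean of the 16 genes was 0.17, 0.0936 and 0.0737 in p21 OFF and -0.155, -0.052 and -0.131 in p21 ON libraries, and the mean of the 14 core genes was 0.278, 0.114 and 0.0716 and then -0.221, -0.0867 and -0.157. In each p21 ON library the core mean was therefore below that of the regulatory particle, while p21 OFF replicate 3 had nearly the same value for both. The difference between the particles was not tested, and transcript length, which moved with fold change over all genes, was not taken into account. Of the ATPases of the base, 4 of 5 were lower. PSMC6 (chromosome 14, 53173896 to 53195308) had 1488, 1317 and 1371 normalized counts in p21 OFF and 1091, 1165 and 1096 in p21 ON libraries. The log2 fold change was -0.32 (SE 0.07, limma adjusted p = 0.0027), and 30.2% of the windows of read length in its transcript also occur elsewhere in the genome. PSMC5, at 9717 ± 355 and 8528 ± 157 normalized counts (SD, n = 3 each), was lower by 12.2% (limma adjusted p = 0.0242), and 13.7% of its exonic bases overlap FTSJ3 on the opposite strand. PSMC2 and PSMC3 were lower by 13.6% and 14.6% (limma adjusted p = 0.0267 and 0.012). PSMC4 had a log2 fold change of -0.16 and did not pass (limma adjusted p = 0.063).

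PSMC1, the remaining ATPase, could not be compared. It had 13, 9 and 9 reads in p21 OFF and 7, 5 and 7 in p21 ON libraries, where the other ATPases had means of 1255 to 9122 normalized counts. In its transcript 37.7% of the windows of 51 bases, the read length, occur exactly elsewhere in GRCh37, the largest share of the group, and 83.2% of its exonic bases overlap NRDE2 on the opposite strand. The part of both in the low value was not tested.

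The other base subunits bind ubiquitin chains and shuttle factors. PSMD4 was lower (log2 fold change -0.27, limma adjusted p = 0.00804), with 22.6% of its windows found elsewhere, and PSMD1 and PSMD2, the scaffold subunits, had log2 fold changes of -0.15 and -0.16 that did not pass (limma adjusted p = 0.0842 and 0.0501). PSMD2 was called lower by edgeR and by DESeq2 on the recovered reads. In the lid, 7 of 8 genes were lower, beside 12.7% of all genes tested. Their falls ran from 11.5% for PSMD13 to 22.3% for PSMD6. PSMD3, PSMD8 and PSMD12, structural subunits of the lid, had log2 fold changes of -0.27, -0.21 and -0.24. PSMD14, the deubiquitinase of the lid, had 1585, 1351 and 1378 normalized counts in p21 OFF and 1166, 1203 and 1128 in p21 ON libraries, and was lower by 18.7% (limma adjusted p = 0.00553). PSMD11, a scaffold of the lid, was the lid gene that did not pass, with a log2 fold change of -0.16 (limma adjusted p = 0.0749). PSMD7 and PSMD13 were close to the threshold (limma adjusted p = 0.0455 and 0.0486) and lost their calls with DESeq2. For PSMD7, 51.6% of the exonic bases lie under a gene that runs on the other strand.

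Of the 4 genes of alternative caps 2 were lower, beside 12.7% of all genes tested, and the inhibitor did not pass the test. PSME1 and PSME2 form the interferon-induced cap that is used with the immunoproteasome. PSME1 had 2237, 1892 and 1967 normalized counts in p21 OFF and 1709, 1856 and 1741 in p21 ON libraries, a log2 fold change of -0.20 (SE 0.07, limma adjusted p = 0.0473), and it lost the call with edgeR and with DESeq2. PSME2 had 919, 804 and 820 normalized counts in p21 OFF and 751, 709 and 860 in p21 ON libraries, with overlapping groups and a log2 fold change of -0.13 (limma adjusted p = 0.239). Both genes lie on chromosome 14, PSME1 from 24605372 to 24608176 and PSME2 from 24612571 to 24616779. PSME3, which forms the nuclear cap and is known for the degradation of p21 without ubiquitin, had 3004, 3057 and 2875 normalized counts in p21 OFF and 2527, 2673 and 2515 in p21 ON libraries. It was lower by 13.6%, a log2 fold change of -0.21 (SE 0.06, limma adjusted p = 0.015), with no overlap. PSME4, a cap known for the degradation of acetylated histones, had 3329, 3574 and 3515 normalized counts in p21 OFF and 3311, 3301 and 3108 in p21 ON libraries, and a log2 fold change of -0.10 (limma adjusted p = 0.229). PSMF1, which binds and inhibits the core, had 722, 773 and 770 normalized counts in p21 OFF and 759, 781 and 730 in p21 ON libraries. The groups overlapped fully, at 755 ± 28.7 and 757 ± 25.7 normalized counts (SD, n = 3 each), and the fold change on the log2 scale was 0.0028 (SE 0.07, limma adjusted p = 0.982).

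Of the 7 assembly chaperones 2 were lower, beside 12.7% of all genes tested. Of the 4 PSMG genes, which help the alpha subunits pair into rings, 0 passed the test with limma, edgeR or DESeq2, and at an unadjusted p-value under 0.05 limma gave 2, both lower, beside 36.8% of all genes. PSMG1 had 1692, 1352 and 1422 normalized counts in p21 OFF and 1230.5, 1469.5 and 1212 in p21 ON libraries, with p21 ON replicate 2 above 2 of the p21 OFF libraries. PSMG2 had 378, 287 and 297 normalized counts in p21 OFF and 274, 284 and 248 in p21 ON libraries. In PSMG2 the groups did not overlap but p21 OFF replicate 1 stood far above the rest, and the adjusted p-values were 0.119 for PSMG1 and 0.097 for PSMG2 (limma). PSMG3 had 442, 357 and 384 normalized counts in p21 OFF and 393, 386 and 421 in p21 ON libraries, and PSMG4 had 131, 87.5 and 99.0 and then 81.5, 98.7 and 106. Both had overlapping groups, and their adjusted p-values were 0.862 and 0.565 (limma). The standard errors of these 4 genes ran from 0.09 to 0.15 on the log2 scale, above those of the cutting subunits, 0.06 to 0.07.

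Among the chaperones of the base, PSMD10, also known as the oncoprotein gankyrin, had the lowest fold change of all 45 genes. On chromosome X from 107327437 to 107334779, it had 831, 714 and 657 normalized counts in p21 OFF and 526, 573 and 535 in p21 ON libraries. It was lower by 25.5% without overlap (log2 fold change -0.42, SE 0.08, limma adjusted p = 0.00177). PSMD9 was lower by 18.6% (limma adjusted p = 0.0149), and PSMD5 had a log2 fold change of -0.15 that did not pass (limma adjusted p = 0.0998).

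The rest of the pathway was read from a list of 29 genes whose products bind, feed or regulate the proteasome. All 29 were tested, 12 were lower and 0 were higher, with a median log2 fold change of -0.17. Over all genes 12.7% were lower. The count dropped to 4 without p21 ON replicate 1 and to 6 without p21 OFF replicate 2, where the shares of all genes were 6.69% and 10.4%, and ADRM1 lost its call in both. Of the 5 subunit and assembly genes that lack a PSM name, 4 were lower. POMP, which matures the core, had 1360, 1130 and 1105 normalized counts in p21 OFF and 909, 995 and 903 in p21 ON libraries (log2 fold change -0.35, limma adjusted p = 0.00431). ADRM1, a ubiquitin receptor of the base, had 5557, 5980 and 5357 and then 4553, 4719 and 4997 (log2 fold change -0.24, limma adjusted p = 0.00899). In both genes the conditions did not overlap. SHFM1, the smallest lid subunit, had 1692, 1415 and 1335 normalized counts in p21 OFF and 1080, 1217 and 1120 in p21 ON libraries (log2 fold change -0.37, limma adjusted p = 0.0034). UCHL5, the deubiquitinase held by ADRM1, had 659, 592 and 614 and then 495, 470.3 and 449 (log2 fold change -0.40, limma adjusted p = 0.00124). Of the ubiquitin genes, RPS27A, a fusion of ubiquitin with a ribosomal protein, had 564, 430.4 and 418 normalized counts in p21 OFF and 342, 356 and 309.8 in p21 ON libraries, with no overlap, and was lower by 28.1% (limma adjusted p = 0.00355), and 3 of the 6 genes of ubiquitin and its activation were lower.

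NFE2L1 and NFE2L2, the regulators of subunit genes, did not pass the test. NFE2L1 had 7182, 8041 and 8244 normalized counts in p21 OFF and 7695, 7537 and 7767 in p21 ON libraries, a log2 fold change of -0.03 (SE 0.06, limma adjusted p = 0.789). NFE2L2 had 2573, 2284 and 2249 normalized counts in p21 OFF and 2241, 2305 and 2302 in p21 ON libraries, a log2 fold change of -0.05 (SE 0.06, limma adjusted p = 0.598). Both had overlapping groups. These are transcript levels, and the activity of NFE2L1 is set by processing of the protein, which was not measured. The sign of both turned in some fits, for NFE2L1 under scaling by library size alone and without p21 OFF replicate 3, and for NFE2L2 without p21 OFF replicate 1 and with trends of length and GC content taken out.

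**Figure D5:**
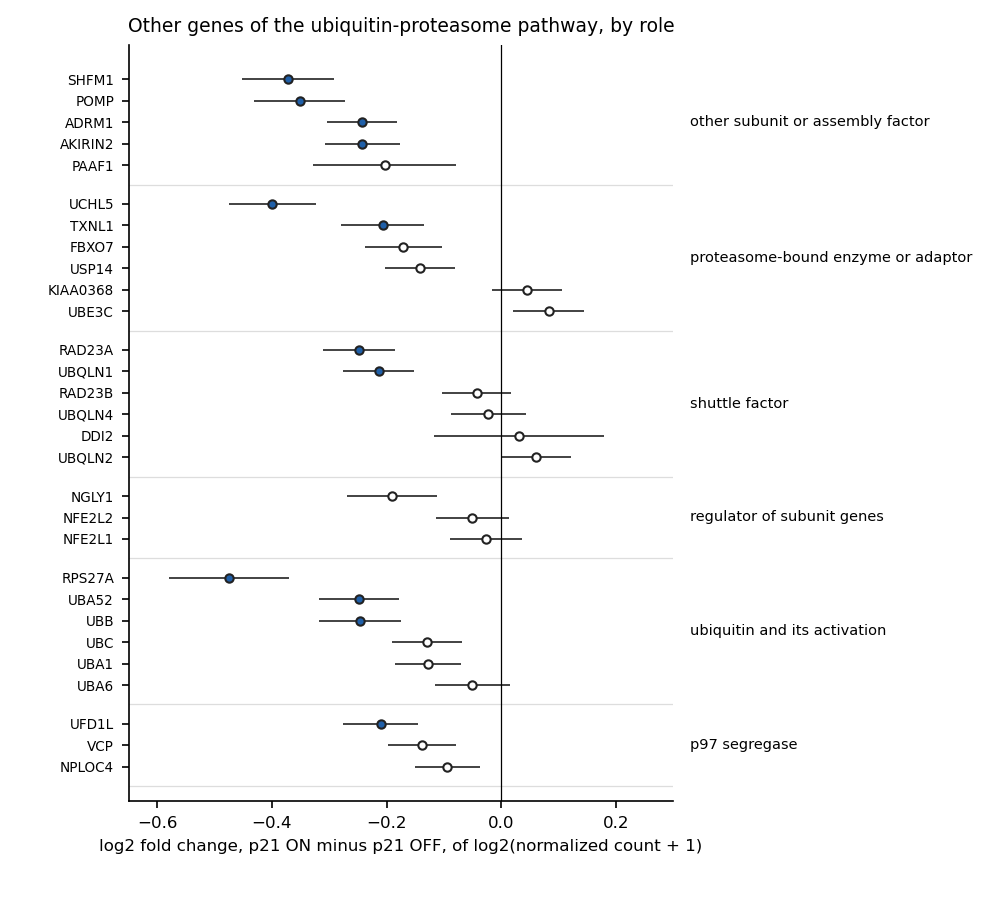
Log2 fold change (p21 ON minus p21 OFF, of log2(normalized count + 1)) of the 29 other genes of the pathway, in blocks by role; bars are standard errors from limma and filled points have an adjusted p-value under 0.05. The other subunit and assembly genes lie from -0.37 to -0.20, while NFE2L1 and NFE2L2 lie at -0.03 and -0.05.

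Transcript length moved with fold change over all genes. The median length of the transcripts of the 45 genes was 1470 bases, against 3470 for all genes with a length, and longer genes had higher log2 fold changes (Spearman correlation 0.368 across 11296 genes and 0.187 across the 45 proteasome genes, and genes are not independent replicates). With a length trend taken out of the log2 values of each library, 26 proteasome genes were lower, 21 of them as before, the median was -0.16, and the share of all genes called lower was 15.0%. With a GC trend taken out 34 genes were lower, against 16.6%, and with both trends taken out 24, against 17.4%. With every library thinned at random to 12795490 reads, 25 to 29 genes were lower over 10 draws (median 27), against 11.6% to 12.1% of all genes, and the first draw gave 29 against 11.8%. Scaling by library size alone moved the median of all genes to 0.05 and left 22 proteasome genes lower, against 9.01% of all genes. Next, 7 tested genes were left out, with at least 10% of read windows found elsewhere or of exonic bases overlapped on the opposite strand. Of the 38 genes that remained, 24 were lower, where the main fit called 12.7% of all genes lower. Overlaps on the same strand played no part in this choice. Over the remaining settings the lower genes numbered 29 with limma-voom (12.1% of all genes), 30 with TMM scaling (12.5%), 30 and 29 with pseudocounts of 0.1 and 10 (12.7% and 12.7%) and 30 under a minimum of 10 reads per library (13.4%). With the replicate number as a block they were 26 (11.4%), with an adjusted p-value under 0.01 they were 17 (6.65%), and without a filter on low values the fit called 1 of 48 (2.17%), which was PSMB3.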

How the data were processed

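Polyadenylated RNA of 6 SaOS-2 libraries was sequenced by the authors, who prepared stranded libraries with single-end reads of 51 cycles, mapped them to hg19 with STAR, counted them per gene name with HTSeq and normalized with DESeq2. The deposited values are a signal, counts divided by a DESeq2 size factor; versions, the annotation and how HTSeq used strand are not given in the sources used here. In each library 100% of values were whole multiples of a step (tolerance 0.01), which returned the reads, and size factors recomputed from those reads differed from the steps by at most 3.1e-06. The authors call the replicates biological; the sources used here do not say whether they were separate cultures, so p-values measure the spread between these libraries.

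Genes with a mean of at least 10 were fitted with limma 3.58.1 (trend) in R 4.3.3 on log2(normalized count + 1), which understates changes of weak genes, without covariates, with Benjamini-Hochberg adjustment over all genes and a threshold of 0.05. Alternatives were limma-voom, edgeR 4.0.16 and DESeq2 1.42.0, all run on these reads, other scalings, pseudocounts (0.1 and 10), filters and thresholds, a replicate block and each library left out. Removal of length and GC trends (splines with 5 degrees of freedom), thinning (10 random draws, run after single draws with different seeds had given different counts), and leaving out genes with shared sequence were chosen after seeing the data. The fits were also run on simulated data with changes larger than those of the proteasome genes, which does not test them at changes this small. Values per library are given for PSMB5 to PSMB11, the PSME and PSMG genes, PSMF1 and the 8 called genes with the lowest adjusted p-values. They are also given for ADRM1, POMP, NFE2L1, NFE2L2 and the 5 called pathway genes with the lowest adjusted p-values. PSMA1, PSMD14, PSMC1, IBSP, COL1A1, KRT18, CDH1, TAP2, B2M and IRF1 were singled out after their values were seen. The genes and lists were chosen with earlier results of these data known, and some genes of the marker and antigen presentation lists are not reported here. Gene positions, exons and transcript lengths are from GENCODE release 44 on GRCh37, the build of hg19, canonical transcripts (17450 of 23228 rows matched), and promoter windows from RefSeq on GRCh38.p14. On the same strand, GENCODE genes that read through or overlap cover 100% of the exonic bases of PSMA2. They cover 81.4% for PSMA6, 67.0% for PSMA1, 56.1% for PSMB10, 28.8% for PSMD9 and 10.4% for PSMB5.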

Additional observations from a re-analysis of the deposited data

How the results depend on the processing

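The count of lower proteasome genes, 29, ranged from 22 to 34 over the tools, scalings, pseudocounts, trend removals and thinning. Without a filter on low values, 1 proteasome gene and 1 pathway gene were lower, and over all genes 503 were lower and 254 higher, and the cause was not tested. With an adjusted p-value under 0.01, a tighter threshold on the same fit, 17 proteasome genes and 6 pathway genes were lower, and over all genes 882 were lower and 616 higher. Over the fits that each left out 1 library, the lower proteasome genes numbered 15 to 29, the lower pathway genes 4 to 12, all genes called lower 887 to 1660 and all genes called higher 695 to 1486, and the median log2 fold change of the proteasome genes ran from -0.28 to -0.20. Scaling by library size alone changed the split of all calls from 1393 higher and 1681 lower to 2034 higher and 1194 lower.

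The difference in the ratio of PSMB8 to PSMB5 ranged from -0.0024 to 0.0599 over the left-out libraries, turning sign without p21 OFF replicate 3. That of PSMB9 to PSMB6 ranged from 0.40 to 0.57, and that of PSMB10 to PSMB7 from 0.05 to 0.13. The single genes whose sign turned had no call. PSMF1 had -0.00053 with edgeR, -0.0017 with limma-voom, -0.13 without the length trend, -0.0146 without the GC trend, -0.13 without both and -0.0051 in the first of 10 thinning draws. Without the length trend PSMB10 had 0.0539, PSME2 0.0191 and PSMG4 0.0214, and without both trends PSME2 had 0.0090 and NFE2L2 0.0171. PSMG3 had -0.0264 without the GC trend, and NFE2L1 had 0.0173 under scaling by library size alone. Over the left-out libraries PSMF1 ranged from -0.0291 to 0.0285, PSMB9 from -0.0206 to 0.15, PSMG3 from -0.0434 to 0.11, PSMG4 from -0.26 to 0.0283, NFE2L1 from -0.0869 to 0.0125 and NFE2L2 from -0.0868 to 0.0105.

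The sources used here do not say whether libraries with the same replicate number were paired, and the values showed no such pairing. Deviations of same-numbered libraries from their group means correlated at -0.0571, -0.0245 and -0.048, and 0 of 6 libraries correlated best with its own number. With the replicate number as a block, 26 proteasome genes were lower, and over all genes 1513 were lower and 1407 higher. At 12795490 to 21975045 reads per library, PSMA8, PSMB11 and PSMC1 had no usable value, and the cause was not tested.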
